A study of Caenorhabditis elegans with 3 samples.

Results

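The yolk protein mRNAs vit-1 to vit-6 were examined in a map of the RNA crosslinked to the Dicer protein DCR-1 in Caenorhabditis elegans, which has no other Dicer. Their members were the clusters annotated by the authors to 1 of these 6 genes on the sense strand and to the class of coding transcripts. There were 119 such entries among 9293 in the 5 deposited lists, namely 53 in the pooled consensus list, 31 in the pooled conservative list, 4 and 7 in the lists of the T1/V1 replicates 1 and 2, and 24 in that of T1 replicate 3. Consensus clusters have reads from at least 2 libraries, and all 31 conservative clusters were also consensus clusters. Each of the 119 carried an exon annotation and named a single gene.

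All libraries came from whole young adult worms of a FLAG:DCR-1 strain, described as a rescue strain, that were labelled with 4-thiouridine and crosslinked with UV light. In this assay, PAR-CLIP, a crosslinked 4-thiouridine is read as a T-to-C conversion. The labels give RNases T1 and V1 for 2 libraries and RNase T1 alone for 1, and a custom 3' adapter for the T1/V1 libraries against the default one for the T1 library, so nuclease and adapter cannot be told apart. No library without the tag, the label or the UV light was analysed here, and whether separate cultures were used is not said, so the spread between libraries may be technical.

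Vitellogenins are the precursors of yolk, large lipid-carrying proteins that the intestine of adult hermaphrodites makes in bulk and secretes into the body cavity. Oocytes take them up through the receptor RME-2. The gene vit-6 encodes a precursor that is cleaved into separate yolk polypeptides, while vit-1 to vit-5 encode a group of closely similar proteins, with vit-1 near vit-2 and with vit-3, vit-4 and vit-5 near each other. Their mRNAs are among the most abundant of the adult intestine, and Dicer itself is known for cutting double-stranded RNA. In whole worms, the number of intestinal cells and the amount of mRNA per cell cannot be told apart, and expression was not measured in these libraries.

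DCR-1 clusters lay on vit-6, vit-2, vit-5 and vit-1, and on neither vit-3 nor vit-4. In the conservative list, which asks for conversions in at least 2 libraries, 4 of the 6 genes had a cluster, where 6.67% of 19983 protein-coding genes did. That background was not matched for expression. The gene vit-6 held 744 consensus reads in 20 clusters, vit-2 held 425 in 16, vit-5 held 53 in 10 and vit-1 held 44 in 7. Of the 1266 vitellogenin reads, 58.8% were on vit-6 and 33.6% on vit-2. Among the 2176 genes with a nuclear coding exon cluster free of any noncoding RNA annotation, called mRNA exon clusters here, vit-6 ranked 1 and vit-2 ranked 2 by consensus reads, whereas vit-5 ranked 72 and vit-1 ranked 84. The ranks are of reads summed over a gene's clusters. They were not corrected for length, so they are not an order of read density.

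No list had an entry for vit-3 or vit-4 on either strand, and no list had a cluster antisense to any of the 6 genes. In every listed cluster the number of reads equalled a count that the authors label as unique, for which no definition was at hand. If that label means uniquely placed, reads that fit several near-identical genes would be missing from the count. The sources do not describe the authors' treatment of such reads, and their part in the values of vit-1 to vit-5 was not tested.

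**Figure D1:**
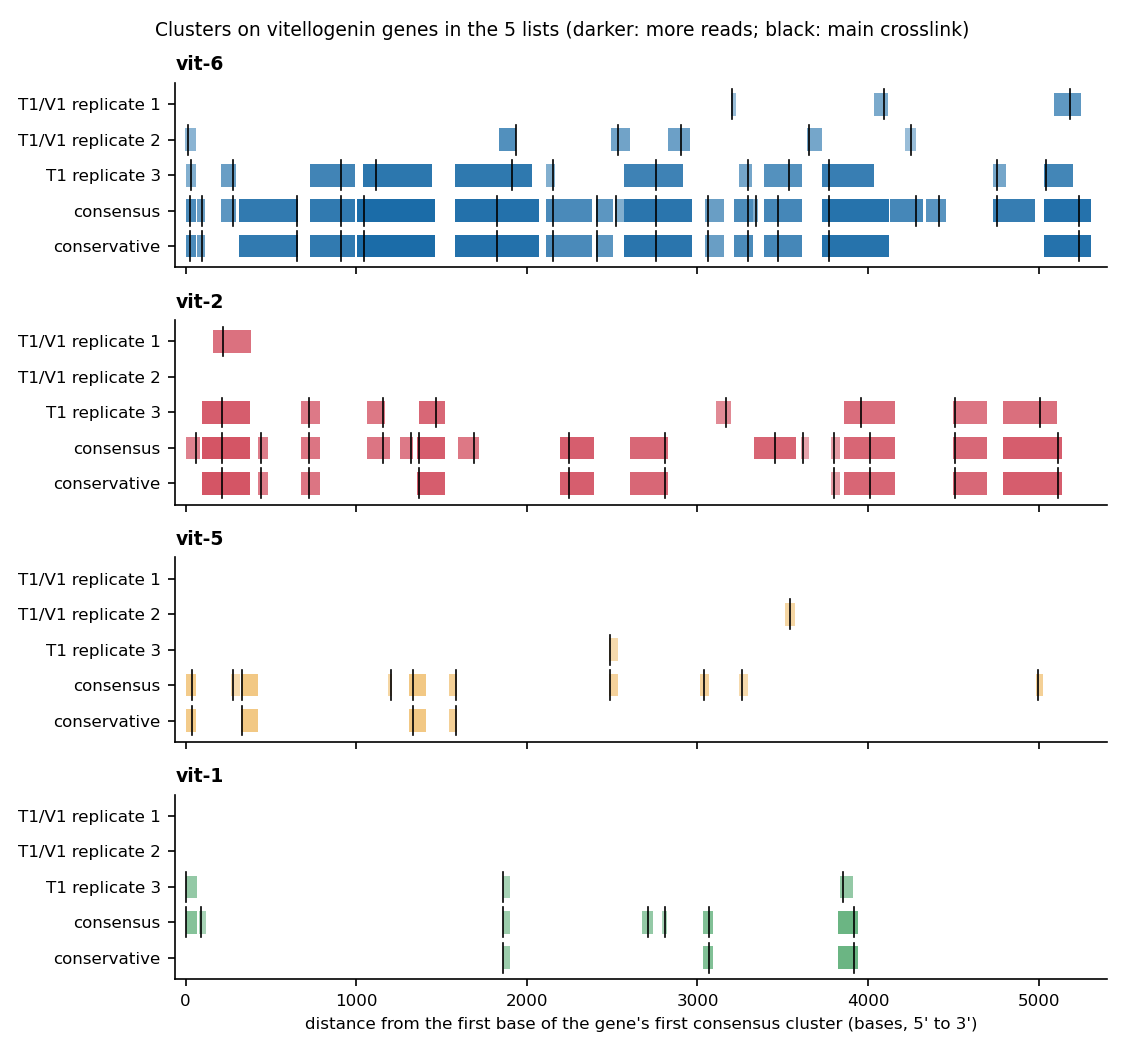
Clusters on vit-6, vit-2, vit-5 and vit-1 in the 3 library lists and the 2 pooled lists. The x axis is the distance in bases from the start of each gene's first consensus cluster, bars are clusters (darker with more reads, on a log scale), and black ticks are the authors' main crosslink positions. The 20 consensus clusters of vit-6 covered 80.7% of the stretch between its first and last cluster, against 10.7% for vit-1.

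The clusters of vit-6 ran almost end to end along the gene. They spanned chromosome IV, 8261133 to 8266440, on the plus strand, in the authors' coordinates, for which the sources name no build. Of these 5308 bases, 80.7% were inside a cluster, and the median gap between neighbouring clusters was 37 bases. The widest cluster was 492 bases and the median 208.

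The vit-6 cluster with the most reads lay in exon 3, at 8262136 to 8262596, with 123 reads and 34 conversions at 12 positions, and its main crosslink was at 8262179. A cluster at 8262714 to 8263205, also in exon 3, had 77 reads but 8 conversions. At the 3' end of the gene, the cluster at 8266165 to 8266440 held 74 reads and 21 conversions and ran from exon 5 over the stop codon into the 3' UTR. So clusters of similar depth on the same mRNA differed in conversions.

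Exon 3 took 530 of the 744 vit-6 reads, or 71.2% (interval 67.8% to 74.5%), in 14 of the 20 clusters. Its clusters ran from 8261862 to 8265588, which is most of the spanned stretch. Shares per exon were not corrected for exon length, so they show no preference for an exon. All intervals given are 95% binomial ones by the exact Clopper-Pearson method. They hold counting error alone, since reads are not independent molecules. The start of the mRNA was also reached. On vit-2 a cluster of 11 reads covered the start codon. On vit-6 a cluster at 8261133 to 8261193, over the start codon and part of the 5' UTR, had 22 reads and 11 conversions, which were found in all 3 libraries. By contrast, the exon 4 cluster at 8265863 to 8266112 had 44 reads and 1 conversion.

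The gene vit-2 showed the same wide coverage with larger gaps. Its 16 consensus clusters spanned chromosome X, 5101005 to 5106138, and covered 51.6% of these 5134 bases, with a median gap of 95 bases. The cluster with the most reads, 64 with 7 conversions, lay in exon 1 at 5101101 to 5101384. The one with the most conversions, 14 at 6 positions, lay in exon 3 at 5103198 to 5103398 and held 44 reads. The last cluster, 5105795 to 5106138, covered the stop codon and part of the 3' UTR with 46 reads and 11 conversions. Exon 1 took 24.9% (interval 20.9% to 29.3%) of the vit-2 reads and exon 3 took 52.9% (48.1% to 57.8%). The exon 3 clusters ran from 5102264 to 5105164, again most of the span, and exon length was not corrected for.

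**Figure D2:**
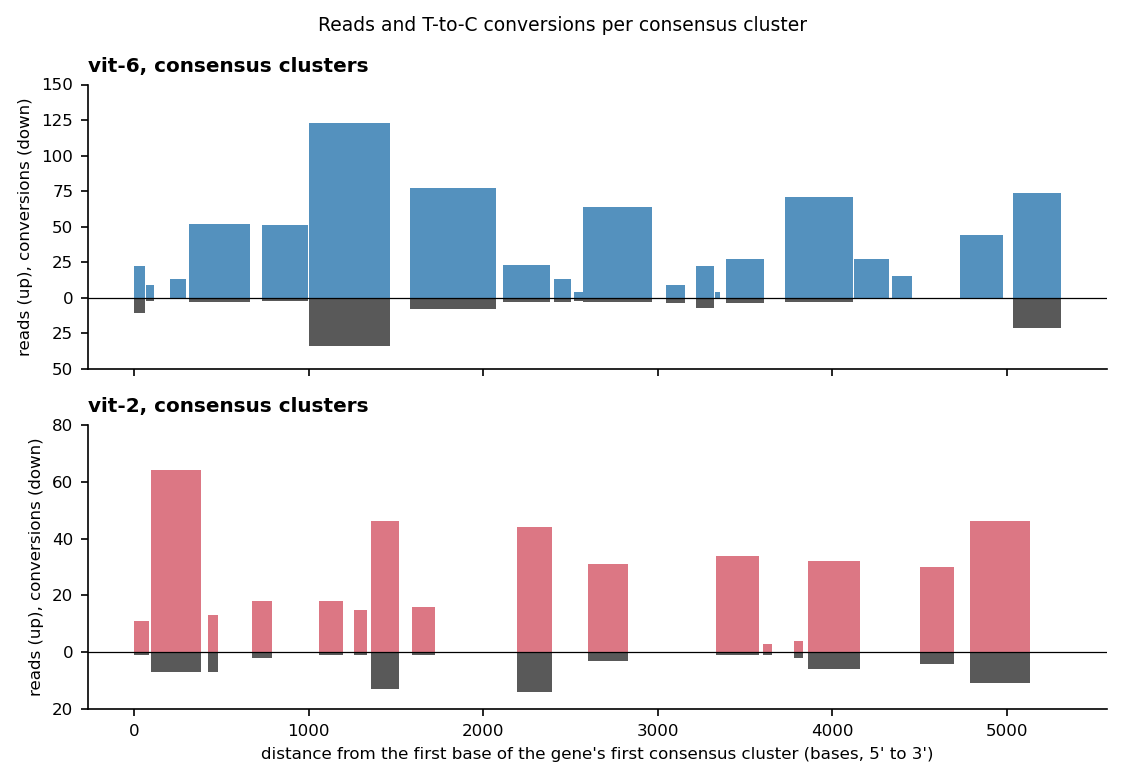
Reads (bars up) and T-to-C conversions (grey bars down) of each consensus cluster along vit-6 and vit-2. The x axis is the distance in bases from the first consensus cluster, and bar widths are cluster widths to scale. The 3 of 20 vit-6 clusters picked for having most conversions held 57.4% of its conversions and 29.4% of its reads.

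Clusters of both genes differed in their number of conversions. The 3 vit-6 clusters with most conversions had 66 of its 115 conversions and 219 of its 744 reads. For vit-2 the top 3 had 38 of 75 conversions and 136 of 425 reads. Picking clusters by conversions raises their share of conversions by itself. No gene outside the vitellogenins was counted this way, so these shares have no background. In contrast, 5 vit-6 clusters and 6 vit-2 clusters had a single conversion each.

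On vit-5 and vit-1 the clusters were short, shallow and far apart. The 10 vit-5 clusters spanned chromosome X, 3403568 to 3408592, covered 11.4% of it and held 2 to 10 reads each. The strongest by conversions, at 3403568 to 3403627 in exon 1, had 8 reads and 9 conversions. A single cluster of 5 reads lay in the 3' UTR, at 3408554 to 3408592, in exon 6 of the authors' transcripts. The 7 vit-1 clusters spanned chromosome X, 7727941 to 7731882, covered 10.7% of it and held 2 to 18 reads, with the most in exon 3 at 7731765 to 7731882, where there were 11 conversions at 7 positions. No vit-1 cluster reached a stop codon or a 3' UTR.

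Per length, the order of the 4 genes put vit-1 and vit-5 level. Consensus reads per kilobase between a gene's first and last cluster were 140.2 for vit-6, 82.8 for vit-2, 11.2 for vit-1 and 10.5 for vit-5. Inside clusters the levels were closer, at 174 reads per kilobase covered for vit-6, 160.4 for vit-2, 104.8 for vit-1 and 92.8 for vit-5. These are the authors' pooled values and have no replicate error.

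Positions were also counted in 3 equal parts between the first and last consensus cluster of each gene. The reads of vit-6 were spread almost evenly, with 36.3% in the 5' part, 32.7% in the middle and 31.0% in the 3' part. Those of vit-2 were sparse in the middle, with 47.3%, 17.6% and 35.1%. The few reads of vit-5 lay mostly in the 5' part (71.7%) and those of vit-1 mostly in the 3' part (72.7%). Over 61 other genes with at least 5 mRNA exon clusters, the median shares were 30.4%, 31.2% and 33.6%. No test was made of these differences.

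By library, vit-6 had clusters in all 3 lists. Its reads numbered 19 and 44 in T1/V1 replicates 1 and 2 and 294 in T1 replicate 3, in 3, 6 and 12 clusters. Of all protein-coding genes, 0.23% had a coding cluster in each library list. The T1/V1 libraries differed from each other, and the T1 library was above both in raw reads. Reads in all coding clusters numbered 2628 and 3338 in the T1/V1 lists and 10365 in the T1 list, which was thus also the deeper list.

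The gene vit-2 held 21 reads in the first T1/V1 library, had no cluster in the second and held 181 reads in the T1 library. By reads vit-2 was thus just above vit-6 in T1/V1 replicate 1, where vit-6 had 19, and vit-6 was above vit-2 in the T1 library. In T1/V1 replicate 2 clusters were called for vit-6 and not for vit-2. The gene vit-5 had a cluster of 3 reads in T1/V1 replicate 2, a cluster of 2 reads in the T1 library and none elsewhere. Clusters of vit-1 were listed in T1 replicate 3 alone, with 10 reads in 3 clusters. Shares of protein-coding genes with a coding cluster were 0.781%, 0.751% and 3.43% in these lists. A gene without a cluster is not shown to have no reads, since the lists hold called clusters only.

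As a share of all coding cluster reads, the vitellogenin genes took 1.52% (interval 1.09% to 2.07%) and 1.41% (1.04% to 1.87%) in T1/V1 replicates 1 and 2. Their share was 4.70% (4.30% to 5.12%) in T1 replicate 3. The T1/V1 mean was 1.47% ± 0.0806 (SD, n = 2), so the T1 value lay above both by more than their spread. The coding class also holds introns with miRNA and other RNA genes, so that mRNA exon clusters held 524 of 2628 and 524 of 3338 coding reads in the T1/V1 lists and 4616 of 10365 in the T1 list. As a share of mRNA exon cluster reads, a denominator added once the values were known, the vitellogenin genes took 7.63% (5.51% to 10.2%) and 8.97% (6.66% to 11.7%) in the T1/V1 libraries, with a mean of 8.30% ± 0.945 (SD, n = 2), and 10.6% (9.68% to 11.5%) in the T1 library. On that scale the interval of the T1 library overlapped those of both T1/V1 libraries. With 1 T1 library the nucleases were not tested against each other.

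**Figure D3:**
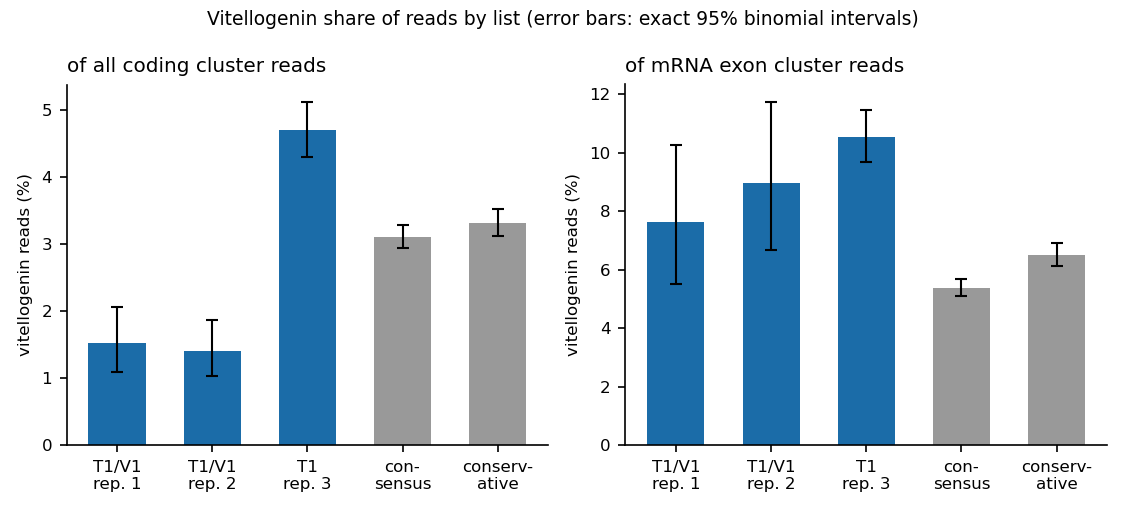
Vitellogenin reads as a percent of all coding cluster reads (left) and of mRNA exon cluster reads (right) in each library list (blue) and pooled list (grey), with exact 95% binomial intervals. On the left the T1/V1 libraries stood at 1.52% and 1.41%, against 4.70% for the T1 library. On the right they stood at 7.63% and 8.97%, against 10.6%, with overlapping intervals.

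Vitellogenin clusters of one library list were in part found in another. Of the 4 clusters of T1/V1 replicate 1, 0 overlapped a T1/V1 replicate 2 cluster by at least 1 base on the same strand, where 28.4% of all coding clusters did. Of the 7 clusters of T1/V1 replicate 2, 0 overlapped one of replicate 1, against 28.7%. With 4 and 7 clusters, 0 allows a share of up to 60.2% and 41.0% by the exact interval. In T1 replicate 3, 2 of the 4 were found, against 44.3% of all coding clusters, and 5 of the 7 clusters of T1/V1 replicate 2, against 49.2%. When the overlap had to cover 50% of each cluster, 1 of the 7 was found, against 33.3% of all coding clusters, and 1 of the 5 overlaps was of 2 bases. In the other direction, 2 and 4 of the 24 T1 clusters were found in T1/V1 replicates 1 and 2, against 9.22% and 10.2% of all coding clusters. At 50% overlap these counts were 2 and 1 of 24, against 6.89% for each replicate. Each of these background shares lay inside the exact interval of its vitellogenin count, so the counts are no result particular to these genes.

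Overlapping clusters of different libraries had different main crosslinks on vit-2 and vit-6. The vit-2 cluster at the start of the gene had 21 reads in T1/V1 replicate 1, at 5101168 to 5101388, while T1 replicate 3 listed it at 5101101 to 5101384 with 46. They shared 217 bases and had main crosslinks at 5101226 and 5101221. At the 3' end of vit-6, T1/V1 replicate 1 had 12 reads at 8266221 to 8266378 and T1 replicate 3 had 29 at 8266165 to 8266331, sharing 111 bases. The start codon cluster of vit-6 appeared in T1/V1 replicate 2 and T1 replicate 3 with 3 and 4 reads. In none of the 7 T1/V1 vitellogenin clusters that overlapped a T1 cluster was the main crosslink the same base, where that held for 31 of 86 and 20 of 96 coding clusters of the T1/V1 replicates. With 2 and 5 such clusters, 0 allows shares of up to 84.2% and 52.2%, which include the background shares of 36.0% and 20.8%.

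Most library clusters were part of the consensus list. All 4 clusters of T1/V1 replicate 1, 6 of 7 of T1/V1 replicate 2 and 23 of 24 of T1 replicate 3 overlapped a consensus cluster, where 59.8%, 62.1% and 69.8% of coding clusters did. The exceptions were the vit-5 cluster at 3407083 to 3407139 in T1/V1 replicate 2 and the vit-2 cluster at 5104111 to 5104202 in T1 replicate 3, with 3 and 8 reads. Conversely, 26 of the 53 consensus clusters overlapped a cluster of any library, where 18.8% of consensus coding clusters did. In the other 27 no library list held a cluster. These shares were not matched for depth or width. Consensus vitellogenin clusters that overlapped a T1 cluster had a median of 30 reads, against 8.5 for the rest. Over all coding clusters these medians were 10 and 4.

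Support across libraries was read against that of all coding clusters. Of the 53 consensus clusters, 31 were in the conservative list, or 58.5% (interval 44.1% to 71.9%), against 50.5% of all coding clusters. Reads came from all 3 libraries in 40 of the 53, against 45.2%, and conversions in 12, against 10.8%. Conversions came from exactly 2 libraries in 19, against 41.3%. Among clusters of at least 10 reads, 24 of 33 were conservative, or 72.7% (54.5% to 86.7%), against 74.8%, a share near the background. At that depth reads came from all 3 libraries in 32 of 33, against 92.4%, and conversions in 12 of 33, against 39.4%, so these shares were near the background too. By gene, 14 of 20 vit-6 clusters, 10 of 16 of vit-2, 4 of 10 of vit-5 and 3 of 7 of vit-1 were conservative. The 12 clusters with conversions in all 3 libraries were 7 on vit-6, 4 on vit-2 and 1 on vit-1.

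Clusters of vit-6 and vit-2 were wide and deep for coding clusters, with medians of 25 reads and 177.5 bases, while those of vit-5 and vit-1 had medians of 4 reads and 51 bases. Over all 4 genes the median consensus cluster had 15 reads over 101 bases, against 4 reads over 49 bases for the other 3689 coding clusters. At 200 bases or more were 16 of 53 vitellogenin clusters, 10 on vit-6 and 6 on vit-2, against 1.71% of the others. Some other mRNAs with many reads had wide clusters too, but most had narrower ones than vit-2. The mean width per mRNA exon cluster was 214 bases for vit-6 and 166 for vit-2. Of the 25 genes with at least 100 reads in such clusters, the widest were eft-3 with 350.5, asp-1 with 302 and col-140 with 297. Among the narrower ones were unc-54 with 97.3, hsp-1 with 96.1 and emb-9 with 47.3. Among clusters of at least 10 reads the medians were 198 bases for 33 vitellogenin clusters and 87 bases for 650 others. In the library lists the vitellogenin medians were 118 and 86 bases for the T1/V1 replicates 1 and 2 and 130.5 for T1 replicate 3, against 45, 48 and 52 for the other coding clusters. These comparisons are descriptions without a test, since clusters of 1 mRNA share their source.

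Of the 4 mapping classes that the authors assign, the commonest one held 52 of the 53 consensus clusters, against 77.4% of the other coding clusters. The exception was the vit-1 cluster at 7730618 to 7730681, with 4 reads. Among consensus clusters of at least 10 reads the class held all 33 vitellogenin clusters, against 95.1% of the other coding clusters. At that depth the share was thus near the background. In the library lists 1 vitellogenin cluster, on vit-6 in T1/V1 replicate 2, was outside that class.

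Conversions per read were low on vit-6 and vit-2 and close to other coding clusters on vit-5 and vit-1. In the consensus list vit-6 had 115 conversions on 744 reads, or 0.155 per read, and vit-2 had 75 on 425, or 0.176. The gene vit-5 had 27 on 53, or 0.509, and vit-1 had 23 on 44, or 0.523, and the other coding clusters together had 0.507. Other mRNA exon clusters together had 0.606, which was above each of these genes. The deeper genes were thus the ones with fewer conversions per read, and deep clusters had fewer in general. Among clusters of at least 10 reads, the median was 0.111 per read for 33 vitellogenin clusters and 0.280 for 650 others. For 471 other mRNA exon clusters of that depth it was 0.333.

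Other mRNAs with many reads lay on both sides of vit-6 and vit-2. Of 25 genes with at least 100 reads in consensus mRNA exon clusters, vit-6 stood 6th and vit-2 10th from the low end of conversions per read, and the median gene had 0.244 in a range of 0.0192 to 1.44. Below vit-6 were M01A10.1, the collagen genes col-140 and col-20, Y82E9BR.3 and the translation elongation factor gene eft-3, with 0.110 per read. Between vit-6 and vit-2 stood the aspartyl protease gene asp-1, the ribosomal protein gene rpl-10 and tag-61. The 15 genes above vit-2 included the muscle myosin gene unc-54 with 0.362, the heat shock protein gene hsp-1 with 0.845 and the collagen gene emb-9 with 1.23. These genes were set out after their values were seen.

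**Figure D4:**
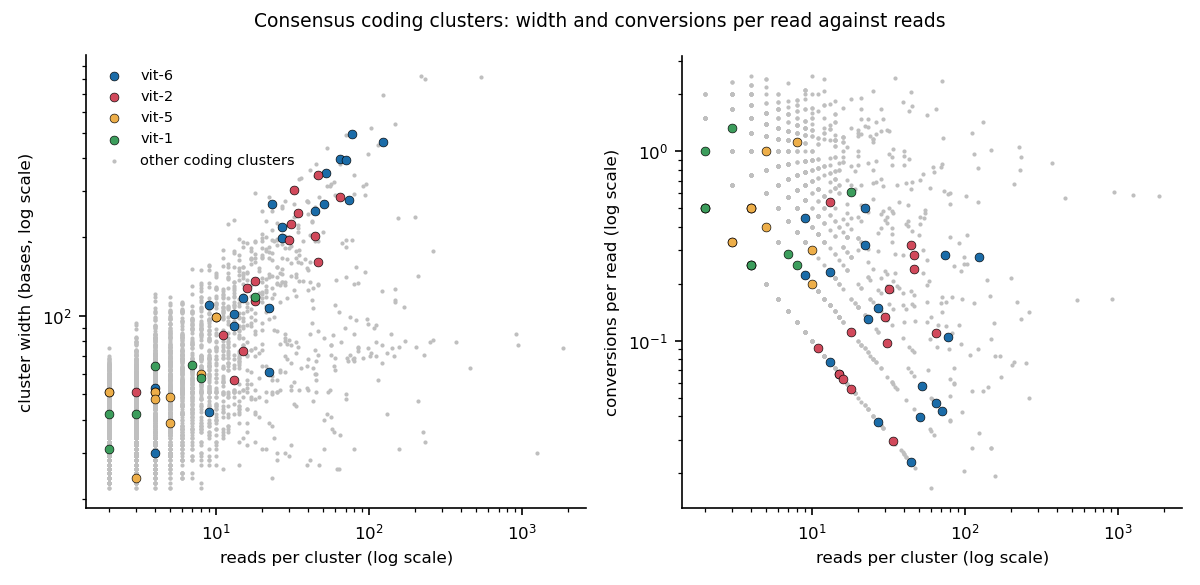
Width (left, bases) and T-to-C conversions per read (right) against reads, all on log scales, for the 53 vitellogenin and 3689 other consensus coding clusters. Clusters of vit-6 and vit-2 lie at the wide, deep end on the left, and on the right the medians were 0.111 and 0.280 conversions per read in vitellogenin and other clusters of at least 10 reads.

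As a share of all edits, conversions were highest on vit-5. They made up 69.2% of its edits (interval 52.4% to 83.0%), 39.7% on vit-1 (27.0% to 53.4%), 34.9% on vit-2 (28.5% to 41.7%) and 30.2% on vit-6 (25.6% to 35.1%). The intervals of vit-1, vit-2 and vit-6 overlapped, and that of vit-5 lay above those of vit-2 and vit-6. Edits other than T-to-C conversions numbered 0.795 per read on vit-1, against 0.226 on vit-5, 0.329 on vit-2 and 0.358 on vit-6. For vit-1 these rest on 44 reads, and the cluster at 7730975 to 7731032 alone had 12 edits, 2 of them conversions, on 8 reads.

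In the T1 list conversions per read on vit-6 and vit-2 were fewer still. T1 replicate 3 had 14 conversions on 294 vit-6 reads and 14 on 181 vit-2 reads, or 0.0476 and 0.0773 per read, and 10 of its 12 vit-6 clusters had a single conversion. Its 4 clusters on vit-5 and vit-1 had 7 conversions on 12 reads, or 0.583 per read. In T1/V1 replicate 1 vit-6 had 4 conversions on 19 reads and vit-2 had 1 on 21, and in T1/V1 replicate 2 vit-6 had 6 on 44. The median per 100 edits was 83.3 and 50 for the 4 and 7 vitellogenin clusters of T1/V1 replicates 1 and 2, against 50 and 33.3 for other coding clusters, while in T1 replicate 3 it was 16.5 against 50. Per read, the vitellogenin medians were below the others in all 3 lists, at 0.142, 0.167 and 0.0889, against 0.362, 0.333 and 0.5. Among clusters of at least 5 reads the gap was smaller, with 0.0833, 0.134 and 0.0607 for 3, 4 and 18 vitellogenin clusters, against 0.143, 0.143 and 0.167 for the others.

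Summed over shared sites, conversions per read were higher in the pooled list than in the T1 list, for vitellogenin and for all coding clusters alike. By site this held in 16 of 23 vitellogenin sites and not in the other 7. No such count was made over all coding sites, so it has no background. Sites were shared where clusters of the lists overlapped by at least 1 base, and their extents could differ. Over the 23 consensus vitellogenin clusters that overlapped a T1 cluster there were 160 conversions on 897 reads, or 0.178 per read, and on the 23 T1 clusters 33 on 479, or 0.0689. For all coding clusters the values were 0.430 and 0.230. The strongest vit-6 cluster had 34 conversions on 123 consensus reads, and the T1 cluster inside it, 8262174 to 8262578, had 1 on 59. At the 3' end of vit-6 the consensus cluster had 21 on 74 and the T1 cluster had 1 on 29. That T1 cluster ended at 8266331, before the main crosslink of the consensus cluster at 8266370. The exon 4 cluster of vit-6 went the other way, where the pooled cluster had 1 on 44 and its T1 counterpart had 1 on 6. Their widths were 250 and 79 bases. Which libraries gave the other reads is not stated in the pooled list.

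Other genes of the yolk pathway with a consensus coding cluster had a median of 4.5 reads. That is near the median of 5 over all 2398 gene names with such a cluster. Of 24 genes listed for yolk gene transcription, yolk assembly, uptake and processing, 8, or 33.3%, had a conservative coding cluster, where 6.67% of protein-coding genes had one. The 24 were listed with earlier results of these data known. The shares were not matched for expression, so they show no enrichment of the pathway. Of the 11 transcription genes, 3 were among the 8. In the consensus list these were unc-62, a homeodomain factor that activates vitellogenin genes, with 9 reads and 12 conversions, the FOXO factor gene daf-16 with 5 reads and the receptor-related gene lrp-2 with 4. By library, unc-62 had 9 reads in the first T1/V1 library and 2 in the T1 library.

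Among 11 uptake and endosome genes, rme-2, chc-1 and rab-7 had a conservative cluster. In the consensus list the clathrin heavy chain gene chc-1 held 30 reads in 5 clusters and the yolk receptor gene rme-2 held 24 in 3, with 4 reads each in T1 replicate 3 and no cluster in the T1/V1 lists. The GTPase genes rab-10, rab-5 and rab-7, regulators of membrane traffic, held 3, 2 and 2. The gene dsc-4, which encodes the worm homologue of the lipid transfer protein MTP and is needed for yolk secretion, had 4 reads in the consensus list, 2 in T1 replicate 3 and no T1/V1 cluster. The cathepsin L gene cpl-1, a protease of yolk processing, had 11 consensus reads and 2 in T1/V1 replicate 1. The endosomal factor gene rme-8 had a cluster of 2 reads in T1 replicate 3 alone.

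The distribution of reads over the 3 libraries was compared with that of 121 other protein-coding genes with at least 20 coding cluster reads over the libraries. After division by each library's coding cluster reads, the vitellogenin genes together had 18.5% of their signal in T1/V1 replicate 2 and the rest in the other libraries, with 61.6% in T1 replicate 3. The nearest genes by the summed absolute difference of these percentages were Y54G2A.10 at 5.23, the ribosomal protein gene rpl-6 at 8.21, the calcium pump gene sca-1 at 23.2, the collagen gene col-181 at 25.2 and Y37E3.8 at 28.7, and the median over all 121 was 76.8. None of the 162 reads of Y54G2A.10 was in an mRNA exon cluster, and of rpl-6 and Y37E3.8 11 of 31 and 8 of 37 were, while all of those of sca-1 and col-181 were. The profiles and the nearest genes depend on division by all coding cluster reads. As a share of mRNA exon cluster reads, the vitellogenin values of the libraries were closer, at 7.63%, 8.97% and 10.6%. No profile was made on that scale. With 3 libraries that also differ in depth and nuclease, this comparison is a description of likeness.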

How the data were processed

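PAR-CLIP clusters from 3 libraries of whole young adult worms were taken from the deposited lists, 1 per library and 2 pooled, and grouped by the labels (T1/V1, n = 2; T1, n = 1). Bowtie2 2.1.0 is named in the submitters' processing notes, with no build in the sources used here. The authors called clusters at an estimated false discovery rate of 5%, per the files' attributes. The deposited conversion, read and edit counts per cluster are not normalised. The authors' deposited entropy score was read for a check of the columns and not used further. Mapping classes and annotation are the authors' deposited attributes. The lists held 7829, 10834 and 24992 reads in the libraries, and the consensus and conservative lists 92004 and 78157, where each of the 2508 conservative entries was also a consensus entry.

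Members, comparisons and the yolk pathway list were chosen with earlier results of these data known. The genes named were the 6 vitellogenin genes, pathway genes with a consensus coding cluster and the 5 genes nearest in library profile; the others were named after their values were seen. Shares carry exact 95% binomial intervals. Overlap meant at least 1 shared base on the same strand. No test between groups was made, and all coding clusters or genes stand as background. Gene names were matched to a RefSeq table of assembly WBcel235, used for names alone, with 2214 of 2398 names matched. Positions were measured between a gene's first and last consensus cluster, since no annotation of the authors' build was used here. The authors' mapping quality is a class and not a number, so the alternative on it kept the commonest class. Alternatives covered read minimums, denominators, quantities, overlap, list and a left-out replicate. The overlap, position and interval code was tested on simulated data. Analyses used Python 3.11.15, numpy 2.4.6, SciPy 1.17.1 and matplotlib 3.10.9.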

Additional observations from a re-analysis of the deposited data

How the results depend on the processing

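The vitellogenin share of coding cluster reads depended on what was counted. In the T1/V1 mean, the T1 library, the consensus list and the conservative list, it was 1.47%, 4.70%, 3.11% and 3.32% as reported. With conversions in place of reads it was 0.943%, 1.32%, 1.19% and 1.27%, and with clusters in place of reads 2.83%, 2.54%, 1.42% and 1.64%, so that the T1 library was then below the T1/V1 mean. Over all clusters it was 0.472%, 1.95%, 1.38% and 1.31%, and over mRNA exon clusters 8.30%, 10.6%, 5.39% and 6.50%. At 5 or more reads it was 5.28%, 3.54% and 3.59% in the T1, consensus and conservative lists, and in the commonest mapping class 3.38% and 3.62% in the pooled lists. Leaving out a T1/V1 replicate gave 1.41% to 1.52%. The conservative list left 31 vitellogenin clusters, with 10 on vit-2, 4 on vit-5 and 3 on vit-1, and at 5 or more reads vit-5 had 5 and vit-1 had 3. The share of clusters in the conservative list was 72.5% at 5 or more reads, against 69.2% of all coding clusters. When 50% of each cluster had to overlap, 1 of 7 clusters of T1/V1 replicate 2 was found in T1 replicate 3, against 33.3% of all coding clusters, and 1 of 24 in the other direction, against 6.89%. The median conversions of vitellogenin minus other coding clusters were 33.3 and 16.7 per 100 edits in T1/V1 replicates 1 and 2, but -22.1 and -16.7 per 100 reads, a reversal over 4 and 7 clusters whose cause was not tested, and at 5 or more reads 66.7 and 1.46 per 100 edits. In the T1, consensus and conservative lists they were -33.5, -16.7 and -19.6 per 100 edits, -41.1, -35 and -56.1 per 100 reads, and -12.3, -15.98 and -10 per 100 edits at 5 or more reads. The middle part of the genes held 30.5% of reads in the conservative list and the 3' part 27.6%, and the 3' part held 30.2% of consensus clusters. Of 93 alternatives, 54 left the value within the error interval of the reported one or, for counts, within 1.5 times. Some of the 54 could not have moved, so their number does not measure robustness. Each vitellogenin cluster named a single gene, so keeping single gene clusters left the cluster counts unchanged. A recurrence of 0 also stays 0 when more overlap or more reads are asked for. For the T1/V1 mean the interval was the SD around 2 values, which always holds both replicates. The mRNA exon clusters and the difference of medians were chosen after seeing the data. No paired analysis was possible because the T1/V1 and T1 libraries share no replicate number. The few T1/V1 clusters limit what those libraries can show.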
